A study of Mus musculus with 57 samples.

Results

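The day 6 (D6) progeny of mouse embryonic stem cell (ESC) derivatives that had been sorted at day 2 (D2) as Sox1-FOXA2+ were compared, across all genes, with the D6 progeny of cells sorted in the same way as Sox1+FOXA2-. The members were chosen by sample title alone and comprise 6 of the 57 bulk RNA-seq libraries of the series, 3 biological replicates per population. All libraries came from a single clone of a reporter ESC line in which EGFP replaces one Sox1 allele and mCherry is fused to the 3′ end of FoxA2, so both populations carry both reporters and have 1 functional Sox1 allele. Cells maintained in serum with LIF were switched to N2B27 medium with 1 uM retinoic acid (RA), sorted at D2 into wells at 50000 cells per population, and cultured for 4 more days with 1 uM RA in the serum medium without LIF. They were harvested without a second sort, at about 500 cells per library, so each library reads the mixture that grew from a sorted population. The comparison asks whether cells separated by one marker pair at D2 remain different, and in which genes, after they have been left to grow.

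FOXA2 is a forkhead transcription factor of the endoderm, the node and the floor plate of the neural tube, whereas SOX1 is an early transcription factor of the neuroectoderm. Extraembryonic endoderm arises from the primitive endoderm under GATA6, GATA4, SOX17 and SOX7 and divides into parietal endoderm, which secretes the thick laminin and collagen IV basement membrane called Reichert's membrane, and visceral endoderm, an absorptive epithelium that takes up maternal proteins through megalin and cubilin and secretes plasma proteins such as transthyretin and alpha-fetoprotein. RA at high dose drives ESCs both to endoderm of this kind and to posterior neural cells, in which it switches on Hox genes and their MEIS cofactors.

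The libraries held between 10474804 and 76784146 counts, the lowest being Sox1+FOXA2- replicate 3, and between 7.75% and 12.3% of counts were mitochondrial. Levels are given below as CPM, the counts of a gene scaled to a common library total with TMM factors, for replicates 1, 2 and 3 of the Sox1-FOXA2+ progeny first and of the Sox1+FOXA2- progeny second. CPM is not corrected for gene length, so levels are compared between populations and not between genes. Foxa2 (ENSMUSG00000037025.11, chr2:148042877-148046969 on GRCm38) was at 79.7, 90.8 and 79.8 CPM against 5.74, 5.86 and 7.25 CPM (log2 fold change 3.74 ± 0.30, adjusted p = 4.4e-06, fold changes being Sox1-FOXA2+ over Sox1+FOXA2- and errors being SE). The gene used to sort at D2 was thus still higher in all 3 Sox1-FOXA2+ libraries, and the populations did not overlap, as held for 5476 of 21069 genes tested (26%) and for 1451 of the 1456 genes called below. In contrast, Sox1 had 0 counts in every library of the series. Its exons lie entirely within the span of the noncoding gene Sox1ot (chr8:12385771-12436768), and the deposited values behave as counts over whole gene spans in which reads falling in more than 1 gene were dropped. Of 690 protein-coding genes inside the introns of another gene, only 3 had a count, whereas 13731 of the 14139 protein-coding genes whose span no other gene overlaps had one. Sox2 and Tubb3, which lie within the spans of Sox2ot and Gm20388, also had 0 counts, and the Sox1 part of the labels could not be checked.

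One library stood apart. Sox1-FOXA2+ replicate 1 had counts in 17513 genes, against 20909 to 25267 in the other 5 libraries. Its Spearman correlation with replicates 2 and 3 was 0.901 and 0.905 over 21069 genes, against 0.945 between those libraries and 0.935 to 0.943 within the Sox1+FOXA2- progeny. The summed level of 27 epithelial genes was 6156, 1948 and 1887 CPM in the Sox1-FOXA2+ progeny and 1745, 1679 and 1894 CPM in the Sox1+FOXA2- progeny, and replicate 1 was therefore alone in its high epithelial level. Results are given with this library, and its removal is reported where it mattered.

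Of 21069 genes tested with edgeR, 1456 (6.91%) differed at an adjusted p below 0.05 and are referred to as called. The Sox1-FOXA2+ progeny were higher for 757 (3.59% of those tested) and lower for 699 (3.32%). Protein-coding genes made up 1426 of the calls. The median log2 fold change was 1.74 among genes called higher, -1.77 among genes called lower and -0.04 over all genes tested, and 590 called genes differed by more than 2 on the log2 scale. Genes called higher took 15.6% to 21.8% of CPM in the Sox1-FOXA2+ libraries and 3.53% to 5.10% in the Sox1+FOXA2- libraries, whereas genes called lower took 2.69% to 3.18% and 7.28% to 10.1%. Without Sox1-FOXA2+ replicate 1, 1705 genes were called. The count fell to 859 without Sox1+FOXA2- replicate 1 and to 960 with Sox1+FOXA2- replicate 2 left out, and the genes called lower fell to 359, 385 and, with Sox1-FOXA2+ replicate 3 left out, 434. The genes called higher fell to 500 without Sox1+FOXA2- replicate 1. With all 57 libraries in 1 fit, which shared the scaling, the filter (29607 genes tested) and the spread over the series, 263 were called, and Foxa2 had nearly the same difference but no call (log2 fold change 3.77, adjusted p = 0.78). In bulk libraries, fewer cells of a type and less RNA per cell cannot be told apart, and this holds for every gene below.

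**Figure D1:**
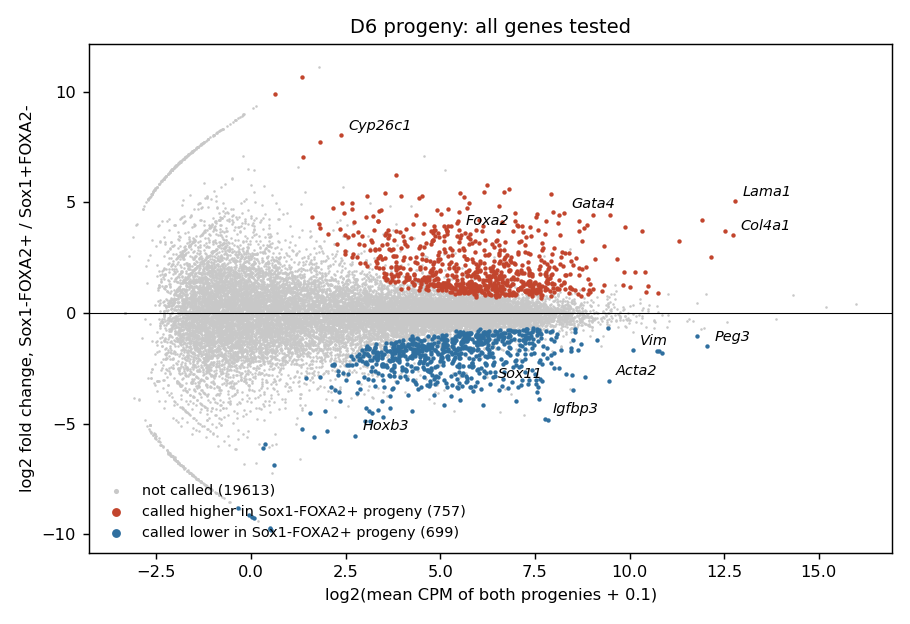
Each point is 1 of the 21069 genes tested, with the log2 of the mean CPM of both D6 progenies plus 0.1 on the x axis and the log2 fold change of Sox1-FOXA2+ over Sox1+FOXA2- progeny on the y axis. The 757 genes called higher include highly expressed basement membrane genes such as Lama1 and Col4a1 at the right, and the 699 called lower include Igfbp3, Acta2 and Peg3.

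Several endoderm transcription factors were higher in the Sox1-FOXA2+ progeny. This list and those below were chosen with earlier results of these data known, so their counts are no independent evidence of direction. Of 16 tested members of this list, 7 were called higher and 0 lower (0 with all 57 libraries in 1 fit were higher, and 1 leaving out Sox1-FOXA2+ replicate 2 or by DESeq2 was lower), with a median log2 fold change of 1.77. Gata4, a zinc finger factor of extraembryonic endoderm, was at 411, 787 and 577 CPM against 31.8, 26.9 and 18.5 CPM (log2 fold change 4.52 ± 0.33, adjusted p = 3.4e-06). Gata6, which acts upstream of it in primitive endoderm, was at 217, 578 and 483 CPM against 59.1, 85.2 and 59 CPM (log2 fold change 2.65 ± 0.32, adjusted p = 0.00015). Both GATA factors were high in every Sox1-FOXA2+ library, and neither overlapped between populations. Sox7, an SRY-related factor of parietal endoderm, was at 117, 539.9 and 402 CPM against 25.9, 14.5 and 12 CPM (log2 fold change 4.33 ± 0.59, adjusted p = 0.0016). Sox17, its relative in endoderm and endothelium, was at 102, 126 and 102 CPM against 32.1, 19.6 and 12.1 CPM (log2 fold change 2.36 ± 0.42, adjusted p = 0.003). Sox7 was lower in replicate 1 than in the other Sox1-FOXA2+ libraries, while Sox17 was even across them, and neither overlapped the other population. The called members also included the forkhead gene Foxq1 at 16.3, 6.19 and 13.8 CPM against 0.442, 0 and 0.843 CPM (log2 fold change 4.96 ± 1.11, adjusted p = 0.013, adjusted p = 0.075 without Sox1+FOXA2- replicate 1), 66% of whose exon bases lie within other genes. Only uncalled levels were seen for Hnf4a, a regulator of absorptive and hepatic endoderm, at 0, 6.36 and 9.17 CPM against 1.42, 0.0715 and 2.11 CPM (adjusted p = 0.6), with Sox1-FOXA2+ replicate 1 at 0.

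Genes of the parietal endoderm basement membrane were higher in the Sox1-FOXA2+ progeny. All 21 members had a positive fold change and 16 were called higher (10 leaving out Sox1+FOXA2- replicate 2 and 8 with all 57 libraries in 1 fit), with a median log2 fold change of 3.24. Leaving out Sox1-FOXA2+ replicate 1 gave 17 called higher and 1 called lower. The list summed to 43505, 80576 and 68720.3 CPM in the Sox1-FOXA2+ libraries and 7865, 8435 and 3163 CPM in the Sox1+FOXA2- libraries. The 3 chains of laminin-111, a laminin of early embryonic basement membranes, differed together. Lama1 (ENSMUSG00000032796.8, chr17:67697259-67822647), its alpha chain, was at 8436, 17626 and 15308 CPM against 559, 539 and 138 CPM (log2 fold change 5.06 ± 0.63, adjusted p = 0.00073). Lamb1, the beta chain, was at 4675, 9313 and 7977 CPM against 401, 597 and 176 CPM (log2 fold change 4.22 ± 0.48, adjusted p = 0.00023). Lamc1, the gamma chain, was at 6913, 14415 and 11613 CPM against 895, 1231 and 386 CPM (log2 fold change 3.71 ± 0.47, adjusted p = 0.00047). In each of the 3 genes the lowest Sox1-FOXA2+ library was replicate 1 and the lowest Sox1+FOXA2- library was replicate 3, and no library of one population reached the range of the other. The 8 other laminin chains tested were not called, but leaving out Sox1-FOXA2+ replicate 1 gave 1 laminin called lower.

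Collagen IV, which forms the covalent network of the membrane, followed the same order. Col4a1 was at 10031, 14746 and 13148 CPM against 1499.6, 1387 and 405 CPM (log2 fold change 3.53 ± 0.48, adjusted p = 0.00072). Col4a2, transcribed head to head with it, was at 3825, 5675 and 4235 CPM against 673, 587 and 194 CPM (log2 fold change 3.24 ± 0.45, adjusted p = 0.00079). Sparc, a collagen-binding matrix protein abundant in parietal endoderm, was at 4084, 10244 and 9015 CPM against 1734, 1518 and 751 CPM (log2 fold change 2.54 ± 0.37, adjusted p = 0.00059). None of these overlapped between populations, and Sox1+FOXA2- replicate 3 was the lowest library in each. Nid2, one of the nidogens that link laminin to collagen IV, was at 938, 719 and 583 CPM against 168, 255 and 106 CPM (log2 fold change 2.08 ± 0.30, adjusted p = 0.00052). Fst, the secreted activin antagonist follistatin, was at 368, 919 and 967 CPM against 56.1, 86 and 32 CPM (log2 fold change 3.69 ± 0.42, adjusted p = 0.0002). Thbd, thrombomodulin, a surface receptor of parietal endoderm and of endothelium, was at 49.9, 265 and 289.6 CPM against 5.5, 7.4 and 0.169 CPM (log2 fold change 5.46 ± 1.12, adjusted p = 0.026), but its call was lost in 4 of the fits that left out 1 library (adjusted p = 0.17 without Sox1+FOXA2- replicate 1, 0.14 with Sox1+FOXA2- replicate 2 left out, 0.12 with Sox1-FOXA2+ replicate 2 left out and 0.12 with Sox1-FOXA2+ replicate 3 left out).

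**Figure D2:**
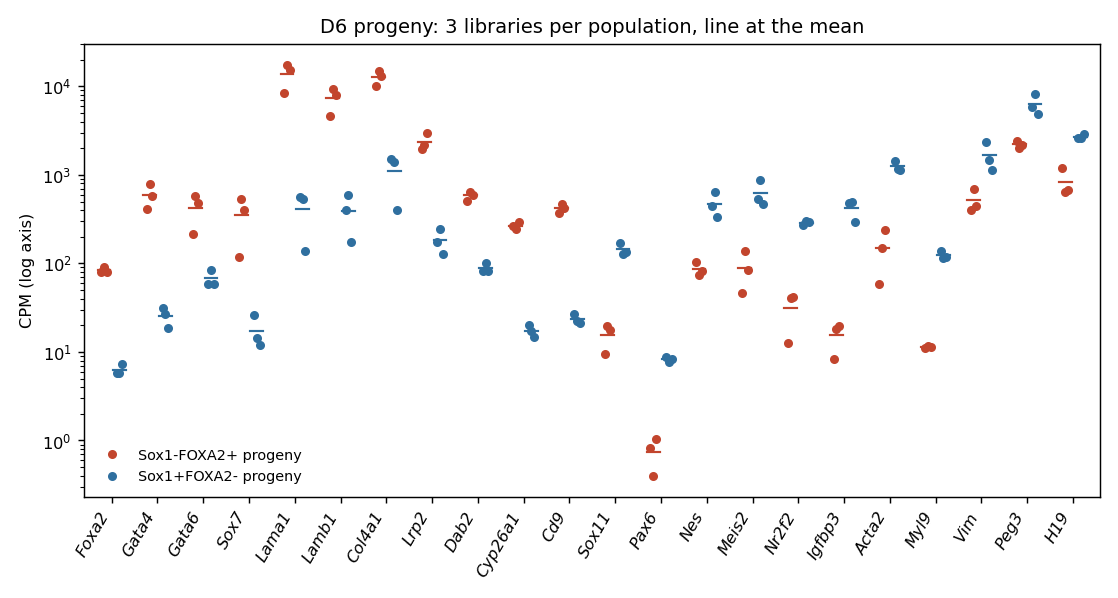
Each point is the CPM of 1 library (log axis) for 22 genes, 3 libraries per population, with a line at the mean, Sox1-FOXA2+ progeny on the left and Sox1+FOXA2- progeny on the right of each gene. From Foxa2 to Cd9 the 3 Sox1-FOXA2+ libraries lie above the other population, and from Sox11 to H19 they lie below it.

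The enzymes that fold and modify collagen were higher in the same libraries. Of 16 tested, 8 were called higher and 2 lower (4 with all 57 libraries in 1 fit were higher, and 1 leaving out Sox1+FOXA2- replicate 1 or Sox1-FOXA2+ replicate 2 or Sox1-FOXA2+ replicate 3 or with only the 6 libraries in the fit and 0 with all 57 libraries in 1 fit were lower). P4ha2, a catalytic subunit of collagen prolyl 4-hydroxylase, was at 465, 935 and 884 CPM against 59, 41.8 and 28.7 CPM (log2 fold change 4.14 ± 0.39, adjusted p = 3.7e-05). P4hb, the subunit that this enzyme shares with protein disulfide isomerase, was at 1230.2, 2437 and 2752 CPM against 634, 726 and 442 CPM (log2 fold change 1.83 ± 0.29, adjusted p = 0.00099). Plod2, a lysyl hydroxylase, was at 804, 1450.2 and 1154 CPM against 157, 194 and 61.7 CPM (log2 fold change 3.04 ± 0.38, adjusted p = 0.00026). These genes were non-overlapping and lowest in replicate 1 among the Sox1-FOXA2+ libraries. Serpinh1, the collagen chaperone HSP47, was at 926, 2127 and 2275 CPM against 512, 579 and 398 CPM (log2 fold change 1.84 ± 0.31, adjusted p = 0.0015). In the opposite direction, Loxl1, a lysyl oxidase relative that cross-links elastic fibers, was at 1.64, 4.92 and 4.33 CPM against 48.9, 44.4 and 22.9 CPM (log2 fold change -3.41 ± 0.47, adjusted p = 0.00036). A list of 39 endoplasmic reticulum folding and translocation genes, drawn up after values had been seen and so no independent evidence of direction, had 31 called higher and 0 lower (11 with all 57 libraries in 1 fit were higher), with a median of 1.30. Among these, Pdia5, a protein disulfide isomerase, was at 115, 193 and 183 CPM against 31.7, 22.8 and 19.9 CPM (log2 fold change 2.72 ± 0.27, adjusted p = 3.4e-05). Creb3l2, a membrane-bound transcription factor of the secretory pathway, was at 336, 449.5 and 453 CPM against 93.3, 120.5 and 77.3 CPM (log2 fold change 2.09 ± 0.25, adjusted p = 0.00012).

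The uptake side of the endoderm program was also higher, while no tested secreted protein gene of visceral endoderm was called higher. Of 18 genes of the megalin and cubilin endocytic system, 9 were called higher and 0 lower (3 with all 57 libraries in 1 fit). Lrp2, which encodes megalin, was at 1952, 2166 and 2991 CPM against 175, 243 and 128 CPM (log2 fold change 3.70 ± 0.33, adjusted p = 1.1e-05). Lrpap1, its chaperone, was at 799, 646 and 1068 CPM against 50.2, 72.2 and 55.3 CPM (log2 fold change 3.82 ± 0.33, adjusted p = 7.5e-06). Dab2, the adaptor that links the receptor to clathrin, was at 514, 646 and 599 CPM against 81.7, 102 and 82.1 CPM (log2 fold change 2.73 ± 0.21, adjusted p = 4.4e-06). In all of these the lowest Sox1-FOXA2+ library was above the highest Sox1+FOXA2- library. Cubn, which encodes cubilin, was at 445, 443 and 758 CPM against 69.3, 122 and 57.8 CPM (log2 fold change 2.72 ± 0.43, adjusted p = 0.002). Lgmn, a lysosomal cysteine protease, was at 395, 314 and 405 CPM against 50.7, 46.6 and 27.6 CPM (log2 fold change 3.15 ± 0.37, adjusted p = 0.00018). By contrast, 0 of 16 tested members of a visceral endoderm list, most of them secreted proteins, were called by edgeR. Another 7 of its 23 members were not tested. At an unadjusted p below 0.05 edgeR had 1 lower and 0 higher, and DESeq2 called 1 lower. The newer edgeR method, the replicate block, the fit with only the 6 libraries and the fit with no filter on low counts each called 1 lower too. The summed level of the list was 98.2 to 175.9 CPM in the Sox1-FOXA2+ libraries and 104.2 to 156.1 CPM in the Sox1+FOXA2- libraries. Most of that sum was Amot, angiomotin, which is not secreted, at 149, 59.2 and 74.5 CPM against 64.5, 91.6 and 100.1 CPM. The sum is therefore no measure of the secreted products. Mttp, the transfer protein of lipoprotein assembly, also not secreted, was at 13.9, 23 and 22.4 CPM against 8.54, 15.5 and 13 CPM. Ttr, transthyretin, was at 0, 1.53 and 2.3 CPM against 0.785, 0.179 and 3.54 CPM. Afp, alpha-fetoprotein, was at 0, 0 and 1.08 CPM against 4.47, 0.25 and 0.169 CPM, 64% of its exon bases lying within other genes. Markers of definitive endoderm, gut and node were likewise low, at 9.07 to 15.7 CPM and 7.50 to 14.7 CPM in sum, with 0 of 10 called (by edgeR, with 1 higher and 0 lower at an unadjusted p below 0.05, and DESeq2 called 1 higher). Another 11 of the 21 markers were not tested.

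RA metabolism separated the populations at a pair of neighboring genes. Cyp26c1, one of the cytochrome P450 enzymes that degrade RA, had the largest log2 fold change of the called genes that reached a mean of 5 CPM and did not overlap, at 11.6, 10.4 and 8.35 CPM against 0.0491, 0.0357 and 0 CPM (log2 fold change 8.03 ± 0.87, adjusted p = 4.7e-05), with 4 counts in all in the Sox1+FOXA2- progeny. Cyp26a1, the RA-inducible enzyme of the same family, was at 262, 243 and 295 CPM against 20.3, 17.1 and 14.8 CPM (log2 fold change 3.93 ± 0.50, adjusted p = 0.00068). Both were even across the Sox1-FOXA2+ libraries and near background or low in every library of the other population. Their starts lie 12128 bases apart on chromosome 19, and the 250 bases before each start are shown because the genes are adjacent and differed in the same direction (RefSeq, GRCm38.p6, plus strand, chr19:37697558-37697807 for Cyp26a1 and chr19:37685430-37685679 for Cyp26c1). Capitals mark, in Cyp26a1, the 2 half-sites of an RA response element 5 bases apart, beginning 32 bases before the start, and in Cyp26c1 the complement of the GATA motif AGATAA, 130 bases before the start.
Cyp26a1: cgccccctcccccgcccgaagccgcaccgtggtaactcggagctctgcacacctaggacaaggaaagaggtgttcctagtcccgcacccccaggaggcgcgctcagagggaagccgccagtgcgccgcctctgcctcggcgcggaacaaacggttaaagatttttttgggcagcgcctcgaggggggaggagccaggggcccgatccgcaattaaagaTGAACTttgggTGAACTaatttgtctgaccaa
Cyp26c1: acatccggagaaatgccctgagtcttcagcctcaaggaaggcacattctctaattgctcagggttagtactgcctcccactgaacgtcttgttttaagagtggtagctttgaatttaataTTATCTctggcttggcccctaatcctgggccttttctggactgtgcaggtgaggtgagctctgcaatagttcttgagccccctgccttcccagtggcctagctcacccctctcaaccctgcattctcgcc

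The element in Cyp26a1 was searched, after the data had been seen, as a pair of the half-sites, each read as AGGTCA or as AGTTCA or as GGTTCA or as GGGTCA, on the same strand and 5 bases apart, on both strands. It was found in 9 of 14293 such windows of tested genes (0.063%), and AGATAA was found in 8.27% of them. A match describes the letters only. The third family member, Cyp26b1, was at 23.8, 2.46 and 3.48 CPM against 13.8, 9.33 and 5.9 CPM and was not called. Over the RA list of 23 tested genes, 3 were called higher and 3 lower (7 by DESeq2 or with no filter on low counts, 6 by the newer edgeR method, 5 leaving out Sox1-FOXA2+ replicate 1 or with only the 6 libraries in the fit, 1 leaving out Sox1+FOXA2- replicate 1 and 0 with all 57 libraries in 1 fit were lower). Stra6, a membrane receptor that takes up retinol, was at 32.5, 74.1 and 83 CPM against 7.66, 5.47 and 3.88 CPM (log2 fold change 3.47 ± 0.42, adjusted p = 0.00013). Crabp2, a carrier that delivers RA to its nuclear receptors, was lower, at 1.16, 5.34 and 4.47 CPM against 29.4, 18.3 and 18 CPM (log2 fold change -2.58 ± 0.54, adjusted p = 0.0079, adjusted p = 0.075 without Sox1+FOXA2- replicate 1). The nuclear receptor genes Rara and Rxra were also called lower. Degradation and uptake genes were thus higher, and a carrier gene and these receptor genes were lower, in the Sox1-FOXA2+ progeny.

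Several surface, transport and metabolic genes also had large or precise differences. Cd9, a tetraspanin, had the smallest p of all genes, at 369, 474 and 425 CPM against 26.9, 22.5 and 21.2 CPM (log2 fold change 4.17 ± 0.24, adjusted p = 6.6e-07). Sdc4, a heparan sulfate proteoglycan, was at 310.5, 246 and 281 CPM against 29, 21.9 and 25.6 CPM (log2 fold change 3.45 ± 0.22, adjusted p = 1.3e-06). Kit, the stem cell factor receptor, was at 125, 753 and 543 CPM against 15.6, 8.54 and 9.61 CPM (log2 fold change 5.39 ± 0.69, adjusted p = 0.0014). Cd9 and Sdc4 varied little among replicates, while Kit was low in Sox1-FOXA2+ replicate 1 relative to replicates 2 and 3. Slco2a1, a prostaglandin transporter, was at 211, 245 and 206 CPM against 2.28, 6.18 and 5.14 CPM (log2 fold change 5.61 ± 0.66, adjusted p = 0.00064). Slc13a5, a citrate transporter, was at 62.6, 80.6 and 124 CPM against 3.04, 1.86 and 1.01 CPM (log2 fold change 5.45 ± 0.45, adjusted p = 6.8e-06). Hkdc1, a hexokinase family member, was at 74, 172 and 171 CPM against 3.44, 2.93 and 3.12 CPM (log2 fold change 5.45 ± 0.50, adjusted p = 3.8e-05). Each of these transport and metabolic genes was at 6.18 CPM or less in every Sox1+FOXA2- library. Irf4, an interferon regulatory factor best known in lymphocytes, was at 18.4, 38.8 and 26.8 CPM against 0.834, 0.143 and 0 CPM (log2 fold change 6.24 ± 1.26, adjusted p = 0.015, adjusted p = 0.1 without Sox1+FOXA2- replicate 2). Epas1, the hypoxia-inducible factor HIF-2 alpha, was at 746, 1873 and 1451 CPM against 98.1, 47.4 and 44.9 CPM (log2 fold change 4.42 ± 0.43, adjusted p = 6.3e-05).

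The neural genes that were called were lower in the Sox1-FOXA2+ progeny, with 1 exception. Of 24 tested neural progenitor genes, 6 were called lower and 1 higher, while 17 were not called and 10 had a positive fold change. The exception was Tcf7l2, a transcription factor of the Wnt pathway, at 613, 867 and 466 CPM against 117, 138 and 92.2 CPM (log2 fold change 2.49 ± 0.27, adjusted p = 4.6e-05). Sox11, a SOXC factor of neural and mesenchymal progenitors, was at 9.5, 19.8 and 17.8 CPM against 168, 129 and 135 CPM (log2 fold change -3.19 ± 0.28, adjusted p = 8.7e-06). Nes, the intermediate filament nestin, was at 103, 73.3 and 81.4 CPM against 445, 640.4 and 337 CPM (log2 fold change -2.46 ± 0.27, adjusted p = 4.7e-05). Sox9, a factor of neural, crest and cartilage progenitors, was at 9.93, 14.2 and 8.75 CPM against 89.6, 76.9 and 52.2 CPM (log2 fold change -2.73 ± 0.28, adjusted p = 3.4e-05). The populations did not overlap in any of the 3. Pax6, a more specific neural regulator, was low in both populations, at 0.82, 0.396 and 1.03 CPM against 8.88, 7.72 and 8.26 CPM (log2 fold change -3.47 ± 0.76, adjusted p = 0.01, adjusted p = 0.054 without Sox1+FOXA2- replicate 1 and 0.057 with Sox1-FOXA2+ replicate 2 left out). Neuronal differentiation genes summed to 86.5 to 99.8 CPM in the Sox1-FOXA2+ libraries and 228.5 to 306.8 CPM in the Sox1+FOXA2- libraries, and 3 of 24 were called lower (5 by the newer edgeR method, 1 leaving out Sox1+FOXA2- replicate 1 or Sox1+FOXA2- replicate 2 or Sox1-FOXA2+ replicate 3 and 0 with all 57 libraries in 1 fit were lower, and 1 leaving out Sox1-FOXA2+ replicate 3 was higher), with 9 of the 24 fold changes positive. Nefm, the medium neurofilament, was at 0.868, 2.97 and 8.28 CPM against 59.8, 51.1 and 48.2 CPM (log2 fold change -3.72 ± 0.64, adjusted p = 0.0034). Sox2, Tubb3 and Neurod1, all of whose exon bases lie within other genes, had 0 counts.

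The Hox genes that were called were lower as well, as were Meis2 and Nr2f2. Of 18 tested Hox genes, 5 were called lower and 0 higher (3 leaving out Sox1+FOXA2- replicate 2 or Sox1+FOXA2- replicate 3 or Sox1-FOXA2+ replicate 2 and 2 leaving out Sox1+FOXA2- replicate 1 or Sox1-FOXA2+ replicate 3 or with all 57 libraries in 1 fit), with a median log2 fold change of -1.60; 21 of the 39 Hox genes were not tested, several of which lie within the span of another gene. Hoxb3 was at 0, 0.311 and 0.517 CPM against 15.4, 13.6 and 9.94 CPM (log2 fold change -5.53 ± 0.90, adjusted p = 0.0012), and 88% of its exon bases lie within other genes. Hoxb9, at the posterior end of the cluster, was at 0.145, 3.28 and 1.55 CPM against 49.6, 31.2 and 27 CPM (log2 fold change -4.42 ± 0.82, adjusted p = 0.0071, adjusted p = 0.065 without Sox1-FOXA2+ replicate 3). Meis2, a homeobox cofactor of Hox proteins, was at 46.1, 137 and 83.5 CPM against 529.9, 871 and 475 CPM (log2 fold change -2.82 ± 0.45, adjusted p = 0.0028). Nr2f2, the nuclear receptor COUP-TFII, was at 12.6, 40.3 and 42.1 CPM against 273, 301 and 293 CPM (log2 fold change -3.19 ± 0.42, adjusted p = 0.00055). Meis2 and Nr2f2 were lowest in replicate 1 of the Sox1-FOXA2+ progeny, and neither overlapped between populations.

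Most called mesenchymal genes were also lower in the Sox1-FOXA2+ progeny. Of 22 tested, 9 were called lower and 1 higher (18 by DESeq2 or with no filter on low counts, 15 leaving out Sox1-FOXA2+ replicate 1, 4 leaving out Sox1+FOXA2- replicate 1 or Sox1+FOXA2- replicate 2 and 0 with all 57 libraries in 1 fit were lower), with a median log2 fold change of -2.12. Vim, the intermediate filament vimentin, was at 404, 695 and 448 CPM against 2337, 1491 and 1141 CPM (log2 fold change -1.68 ± 0.28, adjusted p = 0.0015). Zeb2, a repressor of epithelial genes, was at 58, 61.5 and 54.6 CPM against 244, 296 and 188 CPM (log2 fold change -2.06 ± 0.27, adjusted p = 0.00024). Twist1, a bHLH factor of mesenchyme, was at 1.4, 7.63 and 5.55 CPM against 32, 17.8 and 29.7 CPM (log2 fold change -2.44 ± 0.53, adjusted p = 0.0092, adjusted p = 0.058 without Sox1+FOXA2- replicate 1). The 1 exception was Snai1, a zinc finger repressor of E-cadherin, which was higher at 14.6, 101 and 87.8 CPM against 11.8, 5.4 and 9.61 CPM (log2 fold change 2.93 ± 0.58, adjusted p = 0.0089, adjusted p = 0.065 without Sox1+FOXA2- replicate 2 and 0.058 with Sox1+FOXA2- replicate 3 left out).

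Contractile genes of smooth muscle were lower, in a list of 17 tested genes drawn up after values had been seen, which is no independent evidence of direction: 9 were called lower and 0 higher (3 with all 57 libraries in 1 fit). Acta2, smooth muscle alpha actin, was at 59, 151 and 236 CPM against 1452, 1156 and 1130.4 CPM (log2 fold change -3.07 ± 0.50, adjusted p = 0.0037, adjusted p = 0.054 without Sox1+FOXA2- replicate 2). Myl9, a regulatory myosin light chain, was at 11, 11.7 and 11.2 CPM against 138, 114 and 118 CPM (log2 fold change -3.45 ± 0.25, adjusted p = 3.4e-06). Cnn1, calponin, was at 21.9, 13.6 and 23.4 CPM against 162, 124 and 99.4 CPM (log2 fold change -2.71 ± 0.36, adjusted p = 0.00032). Myl9 was nearly constant within each population, and none of the 3 overlapped. Igfbp3, a secreted insulin-like growth factor binding protein, was at 8.39, 18.3 and 19.8 CPM against 484, 490.4 and 294 CPM (log2 fold change -4.77 ± 0.36, adjusted p = 4.3e-06). Ecm1, a secreted matrix protein, was at 19.2, 10.8 and 17.4 CPM against 483, 622 and 222 CPM (log2 fold change -4.81 ± 0.48, adjusted p = 0.00014). Col12a1, a fibril-associated collagen, was at 29.9, 59.9 and 90.6 CPM against 657, 1058 and 282 CPM (log2 fold change -3.47 ± 0.52, adjusted p = 0.0023). The collagen family had calls in both directions, with 3 of 43 tested members (6.98%) called higher, namely Col4a1, Col4a2 and Col27a1, and 5 (11.6%) called lower (13 with no filter on low counts, 10 by DESeq2, 3 leaving out Sox1-FOXA2+ replicate 2, 2 leaving out Sox1+FOXA2- replicate 1 or Sox1+FOXA2- replicate 2 or Sox1-FOXA2+ replicate 3 and 0 with all 57 libraries in 1 fit were lower). The other 35 were not called, and the shares of all genes tested were 3.59% higher and 3.32% lower.

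Imprinted genes, which are expressed from one parental allele and regulate fetal growth, were lower in the Sox1-FOXA2+ progeny in 10 of 17 cases and higher in 0 (2 with all 57 libraries in 1 fit), with a median of -1.39. Peg3, a paternally expressed zinc finger gene, was at 2399, 2029 and 2199 CPM against 5822, 8202 and 4839 CPM (log2 fold change -1.51 ± 0.25, adjusted p = 0.0013). H19, a maternally expressed noncoding RNA, was at 1188, 641 and 674 CPM against 2621, 2603 and 2906 CPM (log2 fold change -1.70 ± 0.28, adjusted p = 0.0013). Plagl1, a paternally expressed growth regulator, was at 16.4, 33.9 and 24.4 CPM against 213, 275 and 153 CPM (log2 fold change -3.10 ± 0.30, adjusted p = 2.5e-05). Genes expressed from either parental allele were therefore among those called. Dlk1, a paternally expressed membrane protein related to Notch ligands, was at 0.965, 6.58 and 8.51 CPM against 54.7, 76.8 and 84.1 CPM (log2 fold change -3.74 ± 0.65, adjusted p = 0.0053). Igf2 had 0 counts in all libraries, its exons lying within another gene.

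Most epithelial genes had a positive fold change, but few were called and the summed level was high in one library alone. Of 27 tested, 24 had a positive fold change and 6 were called higher (14 with no filter on low counts, 2 leaving out Sox1+FOXA2- replicate 1 and 1 with all 57 libraries in 1 fit, and 4 without Sox1-FOXA2+ replicate 1). Epcam, an epithelial adhesion molecule, was at 74.1, 38.3 and 39.5 CPM against 12.3, 8.18 and 9.61 CPM (log2 fold change 2.33 ± 0.38, adjusted p = 0.0013). St14, the membrane protease matriptase, was at 323, 71.3 and 109.9 CPM against 25.9, 25.9 and 18.1 CPM (log2 fold change 2.85 ± 0.52, adjusted p = 0.0069). Cdh1, E-cadherin, was at 912, 62.3 and 124 CPM against 51.8, 79.1 and 54.2 CPM and was not called (adjusted p = 0.25), with Sox1-FOXA2+ replicate 1 far above the other libraries and replicate 2 within the range of the Sox1+FOXA2- progeny. A set of 10 tested surface ectoderm markers summed to 309, 45.6 and 52.8 CPM in the Sox1-FOXA2+ libraries and 106, 105 and 103 CPM in the others, so replicate 1 was high in these too, with 0 called (by edgeR, with 0 at an unadjusted p below 0.05, and 0 by DESeq2; 2 were called higher with no filter on low counts, and 1 lower without Sox1-FOXA2+ replicate 1). Beyond the fit without it, the part of this library in the epithelial result was not tested.

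Signaling genes differed in both directions. Over all genes tested, 3.59% were called higher and 3.32% lower, the shares to set beside the count of each pathway. In the FGF pathway, 3 of 21 were called higher and 5 lower (3 leaving out Sox1+FOXA2- replicate 1 or Sox1+FOXA2- replicate 2 and 2 with all 57 libraries in 1 fit were lower). Fgfr4, a receptor, was at 10.3, 25.9 and 31.8 CPM against 2.55, 0.822 and 2.7 CPM (log2 fold change 3.50 ± 0.60, adjusted p = 0.0018). By contrast, the feedback inhibitor Dusp6, a phosphatase of ERK, was at 11.7, 10.8 and 16.7 CPM against 122, 79.7 and 95.4 CPM (log2 fold change -2.92 ± 0.30, adjusted p = 3.6e-05). Spry1, another feedback inhibitor of the pathway, was at 1.59, 2.6 and 1.11 CPM against 17.5, 25 and 28 CPM (log2 fold change -3.73 ± 0.46, adjusted p = 0.00014). A receptor was thus higher while 2 feedback inhibitors were lower in all 3 Sox1-FOXA2+ libraries. In the Wnt pathway, 7 of 41 were called lower and 1 higher (4 leaving out Sox1+FOXA2- replicate 1 and 1 with all 57 libraries in 1 fit were lower, and the higher call was lost in all 6 fits that left out 1 library). Sfrp1, a secreted Wnt antagonist, was at 2.41, 9.95 and 7.19 CPM against 46.1, 105 and 47.4 CPM (log2 fold change -3.34 ± 0.53, adjusted p = 0.0016). Wnt5a, a noncanonical ligand, was at 14.9, 12.1 and 8.09 CPM against 35.9, 41.2 and 34 CPM (log2 fold change -1.67 ± 0.35, adjusted p = 0.0079).

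In the hedgehog pathway 4 of 14 were called lower and 1 higher (2 leaving out Sox1+FOXA2- replicate 2 and 1 with all 57 libraries in 1 fit were lower). Gas1, a coreceptor, was at 7.14, 6.87 and 8.51 CPM against 54.3, 73.8 and 86 CPM (log2 fold change -3.25 ± 0.27, adjusted p = 7.5e-06). Smo, the signal transducer, was at 22.1, 28.4 and 22.4 CPM against 68.9, 75.8 and 69.1 CPM (log2 fold change -1.55 ± 0.25, adjusted p = 0.001). Scube2, which helps release the ligand from cells, was higher at 40.0, 152 and 109.5 CPM against 4.91, 3 and 3.2 CPM (log2 fold change 4.76 ± 0.62, adjusted p = 0.00072). In the TGF-beta and BMP pathway 4 of 31 were called higher and 2 lower (11 by DESeq2, 10 with no filter on low counts, 6 by the newer edgeR method, 5 leaving out Sox1-FOXA2+ replicate 1, 4 with the replicate block, 1 leaving out Sox1+FOXA2- replicate 1 or Sox1+FOXA2- replicate 3 or Sox1-FOXA2+ replicate 3 and 0 with all 57 libraries in 1 fit were lower). Bmp2, a ligand, was at 25.8, 52.4 and 66.5 CPM against 6.48, 4.86 and 5.06 CPM (log2 fold change 3.14 ± 0.41, adjusted p = 0.00023). Bmper, a BMP-binding secreted protein, was at 123.03, 360.2 and 331 CPM against 20.5, 28.5 and 15.7 CPM (log2 fold change 3.65 ± 0.42, adjusted p = 0.00022). Tgfb2, a TGF-beta ligand, was lower at 33.3, 39 and 39.5 CPM against 151, 225 and 101 CPM (log2 fold change -2.09 ± 0.30, adjusted p = 0.00047). In the Notch pathway 1 of 17 was called (5.88%, against 6.91% of all genes tested), and it was higher (1 leaving out Sox1+FOXA2- replicate 3 or by DESeq2 or by the newer edgeR method was lower).

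Pluripotency and cell cycle genes summed to more in the Sox1-FOXA2+ progeny, although few of them were called. The pluripotency list was at 772, 1242 and 1312 CPM against 331, 341 and 499 CPM and the cell cycle list at 4499, 4708 and 4636 CPM against 2741, 3421 and 3596 CPM, with no overlap in either sum. Of 20 tested pluripotency genes, 3 were called higher and 0 lower (7 with no filter on low counts, 6 leaving out Sox1+FOXA2- replicate 3 or by DESeq2 or by the newer edgeR method and 0 with all 57 libraries in 1 fit were higher). Among the alternatives, 2 were called lower by DESeq2 or by the newer edgeR method, and 1 with no filter on low counts. The called genes were Klf4, a Kruppel-like factor, at 92.3, 307 and 297 CPM against 35.2, 33.4 and 33.5 CPM (log2 fold change 2.77 ± 0.37, adjusted p = 0.0004), together with Klf5 and Dnmt3l. Fold changes were positive for 13 of the 20 and negative for 7. The pluripotency sum includes Klf4, while Sox2, also a member, had 0 counts. Of 32 cell cycle genes, 4 were called higher and 3 lower (2 leaving out Sox1+FOXA2- replicate 2 or Sox1-FOXA2+ replicate 2 or with all 57 libraries in 1 fit were higher). Mki67, a marker of cycling cells, was at 993, 755 and 955 CPM against 225, 552 and 346 CPM (log2 fold change 1.27 ± 0.28, adjusted p = 0.011). Ccnd1, cyclin D1, was lower at 4.9, 5.37 and 1.83 CPM against 30.2, 24.7 and 32.8 CPM (log2 fold change -2.85 ± 0.45, adjusted p = 0.00099). Marker lists of other lineages had 1 or 2 called members each, where 6.91% of all genes tested were called. Tek, an angiopoietin receptor, was higher among 11 endothelial and blood markers (9.09% called). Tead4 was higher and Gata3 lower among 12 trophoblast markers (16.7%). Des, desmin, was lower among 14 cardiac and muscle markers (7.14%). Leaving out Sox1-FOXA2+ replicate 1 added a second endothelial and blood marker, and leaving out replicate 3 a second cardiac and muscle marker. The cardiac and muscle list summed to 43.1 to 80.1 CPM in the Sox1-FOXA2+ libraries and 145.0 to 226.7 CPM in the Sox1+FOXA2- libraries.

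**Figure D3:**
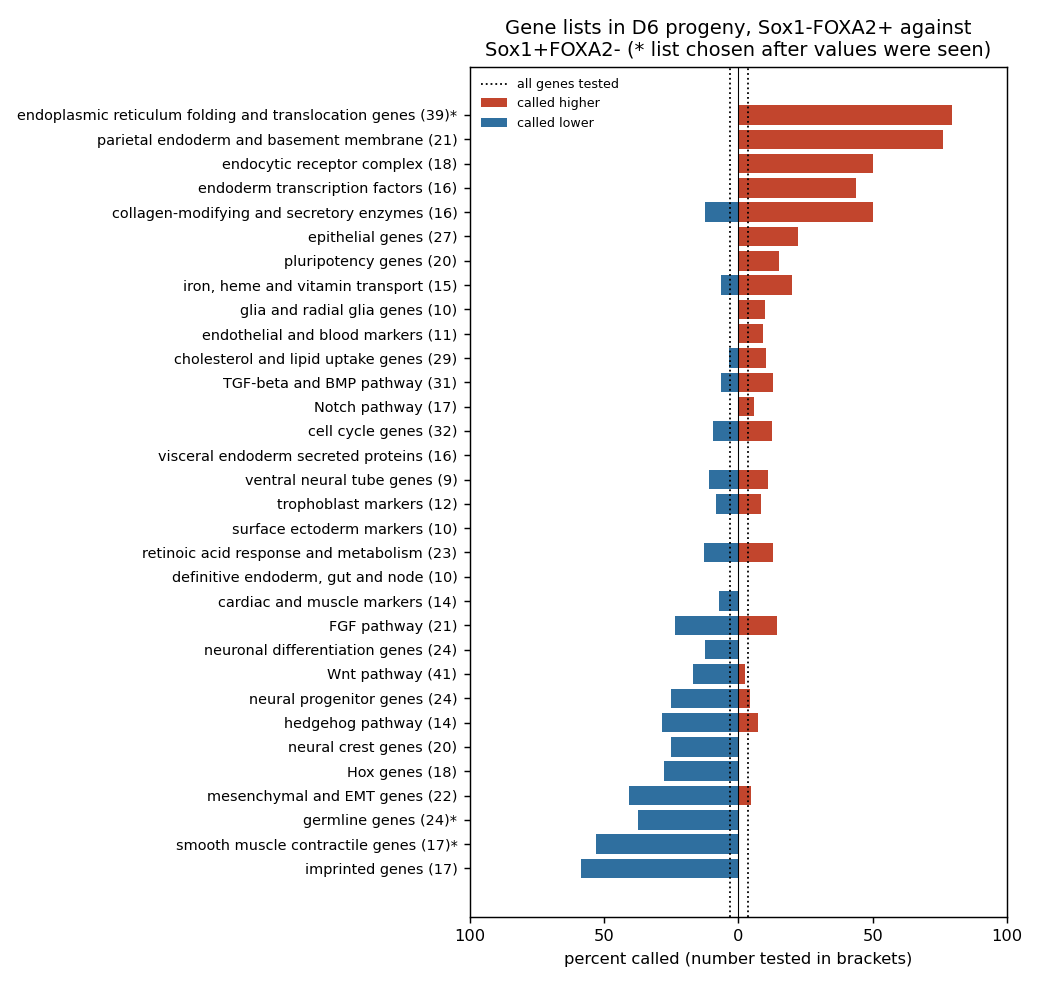
Bars give the percent of tested members of each gene list called higher (right) or lower (left) in the Sox1-FOXA2+ progeny, with dotted lines at the shares of all genes tested, 3.59% higher and 3.32% lower. The endoplasmic reticulum list and the parietal endoderm and basement membrane list reach furthest to the right and, of the lists plotted, the imprinted list and the smooth muscle list furthest to the left. The endoplasmic reticulum, smooth muscle and germline lists were drawn up after values had been seen, and the other lists with earlier results of these data known. The place of a list is therefore no independent evidence of direction. The Meis, Pbx and COUP-TF list (58.3% lower) is not plotted.

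The same contrast had been sampled 2 days earlier in D4 progeny. Of the 757 genes called higher at D6, 738 had a positive fold change in the D4 progeny, and of the 699 called lower 668 had a negative one. Over all genes tested, 63.2% had the same sign at both days. The median log2 fold change at D4 was 1.12 among the former and -0.82 among the latter. The absolute value was larger at D6 for 632 of the former and 672 of the latter, but these genes were chosen by their call at D6. Unlike most of the former, Gata4, Lama1 and Sox7 differed more at D4, by 6.15, 6.06 and 6.14 on the log2 scale. Among the latter, Igfbp3 differed by -2.31 at D4, Myl9 by -1.22 and Meis2 by -1.37. When the difference between the D6 and D4 contrasts was tested in 1 fit, edgeR called 0 of 24025 genes (0%), with 1300 at an unadjusted p below 0.05, and DESeq2 called 50. Without D6 Sox1-FOXA2+ replicate 1 edgeR called 7, and in the other fits that left out 1 library it called at most 4. The values at the 2 days are therefore given side by side, without a statement that any gene changed between them. Cubn, for example, differed by 6.69 at D4 and 2.72 at D6 (difference -3.91, adjusted p = 0.058).

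The D6 progeny were also set beside cells that stayed in N2B27 with RA until D6 and were sorted only then. In the progeny arm, both replating and the serum medium differ from the sorted arm, as does the day of the sort (D2 against D6), and these cannot be told apart. Of the genes called in D6 progeny, 677 of 757 called higher and 578 of 699 called lower had the same sign in the sorted cells, against 55.3% of all genes tested. In a joint fit, 5 of 25515 genes (0.0196%) differed between the 2 contrasts, with 2850 at an unadjusted p below 0.05, and DESeq2 called 1021. The count was 26 without sorted Sox1-FOXA2+ replicate 3, 13 without sorted Sox1-FOXA2+ replicate 1, 12 without sorted Sox1+FOXA2- replicate 1, and 8 without either sorted Sox1-FOXA2+ replicate 2 or Sox1+FOXA2- progeny replicate 3, while it fell to 3 when Sox1-FOXA2+ progeny replicate 2 was left out.

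**Figure D4:**
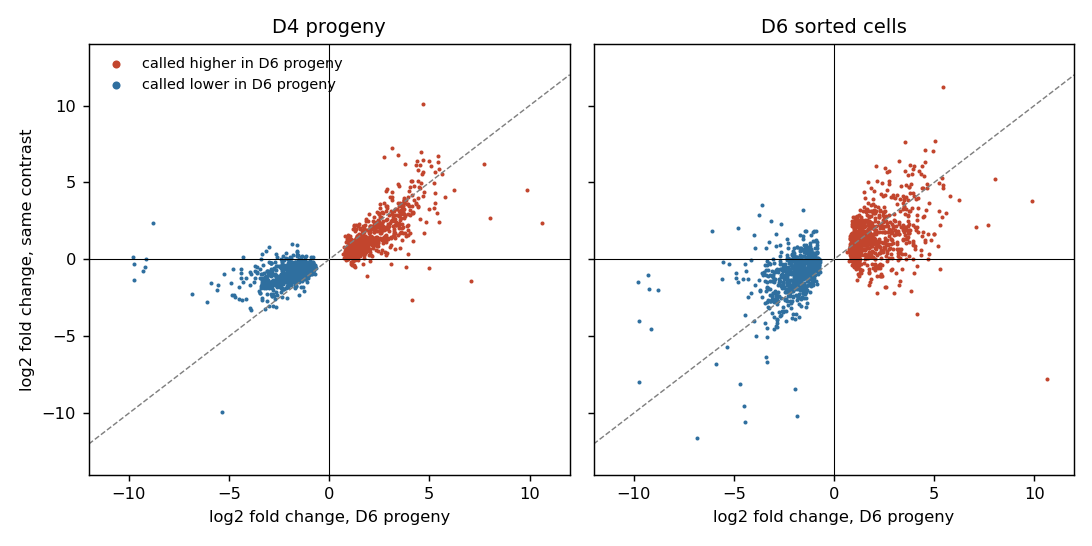
Each point is 1 gene called in D6 progeny, with its log2 fold change there on the x axis and the log2 fold change of the same contrast in D4 progeny (left) or D6 sorted cells (right) on the y axis; the dashed line marks equal values. Of genes called higher, 738 lie above 0 in the D4 panel and 677 in the sorted panel.

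The first of the 5 was Vim. In D6 progeny, scaled over all 57 libraries, it was at 471, 810.1 and 519 CPM in Sox1-FOXA2+ and 2624, 1717 and 1277 CPM in Sox1+FOXA2- libraries. In D6 sorted cells it was at 606, 922 and 418 CPM and 223, 248 and 117 CPM, so the order of the populations was opposite in the 2 arms. The difference between the contrasts was -3.24 ± 0.44 on the log2 scale (adjusted p = 0.0011). Anxa2, a membrane-binding annexin, was at 335, 548 and 523 CPM and 533, 413 and 392 CPM in progeny, where the populations overlapped, and at 186, 188 and 298 CPM and 25.9, 21 and 14.4 CPM in sorted cells (difference -3.29 ± 0.46, adjusted p = 0.0011). Both genes were lower in every sorted Sox1+FOXA2- library than in any Sox1+FOXA2- progeny library, while the Vim levels of the Sox1-FOXA2+ populations overlapped between the arms.

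The other 3 differed the other way. Cecr2, a bromodomain protein of chromatin remodeling, was at 206, 170.4 and 175 CPM and 18.5, 34.3 and 53.2 CPM in progeny and at 156, 104 and 146 CPM and 239, 284 and 201 CPM in sorted cells (difference 3.33 ± 0.49, adjusted p = 0.0022). Spock1, a secreted proteoglycan, was at 118, 303 and 208 CPM and 7.05, 6.07 and 8.3 CPM in progeny and at 442, 229 and 104 CPM and 78.5, 77.1 and 135 CPM in sorted cells (difference 3.63 ± 0.58, adjusted p = 0.0054, adjusted p = 0.066 when Sox1-FOXA2+ progeny replicate 2 was left out). Mtcl1, a microtubule cross-linking factor, was at 453, 542 and 311 CPM and 65.4, 122 and 86.3 CPM in progeny and at 178.4, 196 and 103 CPM and 205, 245 and 178.4 CPM in sorted cells (difference 2.78 ± 0.44, adjusted p = 0.0052, adjusted p = 0.084 when that same library was left out and 0.13 when Sox1+FOXA2- progeny replicate 1 was). In all 3 genes the Sox1+FOXA2- progeny were lower than the sorted Sox1+FOXA2- cells.

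**Figure D5:**
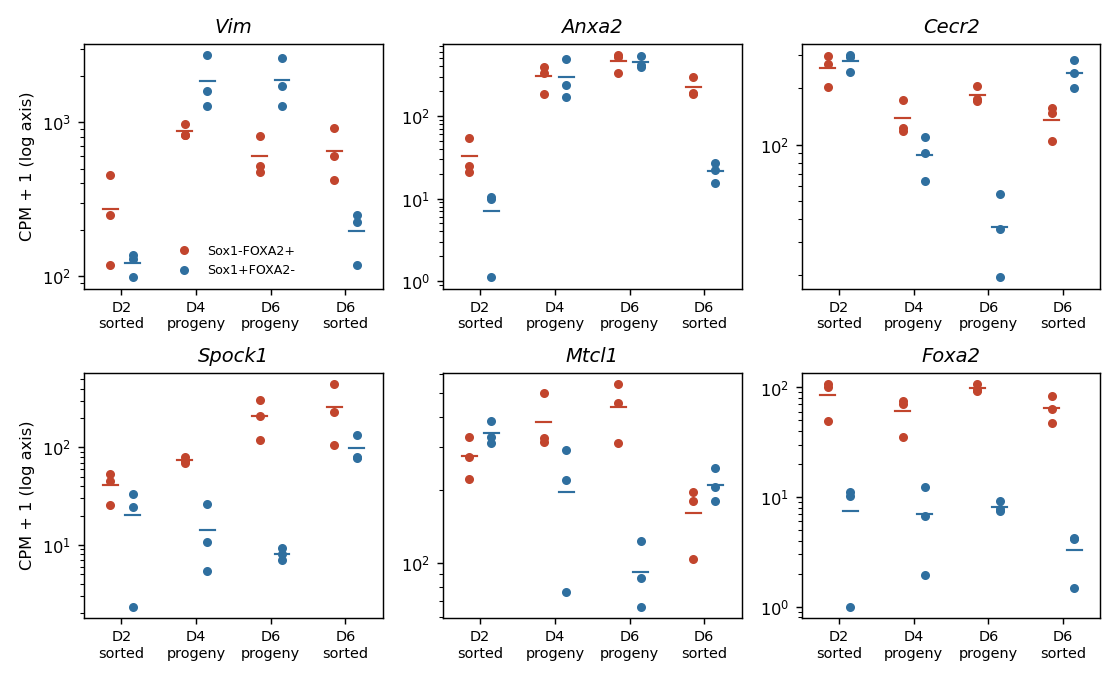
Points are CPM plus 1 (log axis, scaled over all 57 libraries) of single libraries of Sox1-FOXA2+ and Sox1+FOXA2- populations at D2, in D4 and D6 progeny and in D6 sorted cells, with a line at the mean of 3, for the 5 genes whose contrast differed between D6 progeny and D6 sorted cells and for Foxa2. Vim is higher in Sox1+FOXA2- progeny and lower in sorted Sox1+FOXA2- cells, whereas Foxa2 keeps 1 order throughout.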

How the data were processed

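RNA-seq of about 500 cells per library was made with the SMART-Seq Stranded Kit and sequenced on a NovaSeq 6000, and the replicates are biological by the study's methods. The authors aligned reads with STAR, handled them with SAMtools and deposited raw read counts per gene from featureCounts, on GRCm38 with GENCODE M21 (tool versions are not given in the sources used here). The deposited counts behave as reads over whole gene spans with reads in more than 1 gene dropped, so genes nested in or overlapping others are undercounted or at 0. The table's 92 rows that name no gene held 0 counts.

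From these counts, genes passing filterByExpr (at least 10 counts, 15 in all) were tested with edgeR 4.0.16 (R 4.3.3): TMM factors, prior count 0.125, earlier robust quasi-likelihood fit, 1 mean per population over the 9 D6 progeny libraries, which include the Sox1+FOXA2+ progeny, and two-sided tests with Benjamini-Hochberg adjustment over all genes tested. A gene was called at an adjusted p below 0.05. SE is the log2 fold change divided by the square root of F. Contrasts between stages came from joint fits with the D4 progeny or the D6 sorted libraries. The study's methods state no test across genes. Precision was limited by 3 libraries per population, and intervals from them cover the spread between these libraries.

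Members, 30 gene lists and 36 gene families were chosen with earlier results of these data known, and 3 lists after values had been seen. Genes named are members of these, the 12 highest and 12 lowest log2 fold changes of called, non-overlapping genes with a mean of at least 5 CPM in the higher population and no predicted-gene symbol, the 10 largest gains and losses in CPM, the 10 smallest p-values per direction, and, by the same rule, the 6 largest and smallest differences between stages. Alternatives were DESeq2 1.42.0, its size factors, no filter, other sets of libraries in the fit, a replicate block, single libraries left out and, added after seeing the data, the newer edgeR 4 method. The fits were tested on simulated data. Promoter windows came from RefSeq (GRCm38.p6).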

Additional observations from a re-analysis of the deposited data

Results flagged for a closer look

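The contrast of Sox1-FOXA2+ with Sox1+FOXA2- cells differed between D6 progeny and D6 sorted cells at an adjusted p below 0.05, in an edgeR test of the difference itself, for 5 genes. The difference, as the log2 fold change in progeny minus that in sorted cells, was -3.24 for Vim and -3.29 for Anxa2. It was 3.33 for Cecr2, 3.63 for Spock1 and 2.78 for Mtcl1. Replating, the basal medium and the day of the sort (D2 or D6) differ with the arm and cannot be told apart.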

How the results depend on the processing

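The 101 called genes given with values in the text kept their direction and call under DESeq2, with DESeq2 size factors, with no filter on low counts, with only the compared libraries in the fit and with the newer edgeR 4 method. With all 57 libraries in 1 fit 42 kept the call, and 92 kept it whichever single library was left out. The counts moved more. DESeq2 called 2290 genes (1201 higher and 1089 lower), and leaving out the filter on low counts gave 2114 (1065 lower). The newer edgeR method called 1988, and the 57-library fit called 263 (177 higher and 86 lower). Leaving out 1 library gave 859 to 1705 called genes, 500 to 792 higher and 359 to 913 lower. For the difference between D6 and D4 progeny, 0 genes by edgeR became 50 by DESeq2, 124 with no filter, 2 by the newer edgeR method, 1 with only the compared libraries and 0 to 7 with 1 library left out. Between the contrasts of D6 progeny and of sorted cells, 5 became 1021 by DESeq2, 188 with no filter, 40 by the newer edgeR method, 49 with only the compared libraries and 3 to 26 with 1 library left out. The cause was not tested. Of 858 counts of list members under an alternative, 161 moved by more than 1.5 times.

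Among the genes named, only uncalled ones changed sign. Afp was at 0.86 without Sox1+FOXA2- replicate 1 and at -9.05 without Sox1-FOXA2+ replicate 3. Amot ranged from -0.35 without Sox1-FOXA2+ replicate 1, through -0.02 without Sox1+FOXA2- replicate 1, to 0.39. Anxa2 ranged from -0.10 without Sox1-FOXA2+ replicate 2, through -0.06 with replicate 3 of that population left out, to 0.22. Cyp26b1 was at -0.17 by the newer edgeR method, and from -1.72 without Sox1-FOXA2+ replicate 1 to 0.48, with -0.04 and -0.25 when Sox1+FOXA2- replicate 2 or replicate 3 was left out. Ttr was at 0.72 by the newer edgeR method and from -0.94 to 1.49 without Sox1+FOXA2- replicate 3, with 0.39 when Sox1-FOXA2+ replicate 1 was left out. Depth limits the genes at a few counts, as the Sox1+FOXA2- libraries start at 10474804 counts.

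With the replicate number as a block, 1598 genes were called in D6 progeny, the difference between D6 and D4 progeny had 1 gene, that from the D6 sorted cells had 10, and Anxa2 was at -0.0036 and Cyp26b1 at -0.33. All 101 called genes kept their call. The deviations of same-numbered libraries correlated at 0.0496, 0.142 and 0.380 over 5000 genes. Libraries of unlike number correlated between -0.383 and 0.188, the highest being Sox1-FOXA2+ replicate 1 with Sox1+FOXA2- replicate 2. Whether libraries of the same number share a batch cannot be told from these values.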

Other observations

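Eph receptors and ephrins, a contact signaling system that keeps cell populations apart, had called members in both directions. Of 22 tested, 5 were called higher, all of them receptors, and 2 lower, both of them ephrin-B ligands (3 leaving out Sox1+FOXA2- replicate 3 or Sox1-FOXA2+ replicate 2 or Sox1-FOXA2+ replicate 3, 2 leaving out Sox1+FOXA2- replicate 1 and 1 with all 57 libraries in 1 fit were higher, and 6 with no filter on low counts, 5 by DESeq2 or with the replicate block, 1 leaving out Sox1+FOXA2- replicate 2 and 0 with all 57 libraries in 1 fit were lower). Ephb3 was at 138, 315 and 291 CPM against 21.8, 15.6 and 11 CPM (log2 fold change 3.93 ± 0.36, adjusted p = 1.6e-05), and Epha4 was at 147, 74.9 and 68.5 CPM against 16.6, 17.9 and 24.4 CPM (log2 fold change 2.30 ± 0.34, adjusted p = 0.00052). The ligand gene Efnb2 was at 118, 117 and 90.4 CPM against 347, 337 and 239 CPM (log2 fold change -1.50 ± 0.22, adjusted p = 0.00056). The populations did not overlap in these 3 genes. Among 28 semaphorin and plexin genes 4 were called higher and 3 lower, the latter all class 3 secreted semaphorins (7 by DESeq2, 2 leaving out Sox1+FOXA2- replicate 3 and 1 with all 57 libraries in 1 fit were higher, and 5 leaving out Sox1-FOXA2+ replicate 1, 1 leaving out Sox1-FOXA2+ replicate 2 and 0 with all 57 libraries in 1 fit were lower). Sema3a was at 7.14, 20.4 and 24.5 CPM against 93.5, 154 and 93.4 CPM (log2 fold change -2.71 ± 0.50, adjusted p = 0.0061). Among 58 matrix proteases and inhibitors 3 were higher and 11 lower (6 leaving out Sox1-FOXA2+ replicate 3, 5 leaving out Sox1+FOXA2- replicate 1, 4 leaving out Sox1+FOXA2- replicate 2 and 2 with all 57 libraries in 1 fit were lower). Adamts9, a secreted metalloprotease, stood out at 345, 1477 and 1178 CPM against 40.2, 73.1 and 23.9 CPM (log2 fold change 4.45 ± 0.64, adjusted p = 0.0028). Over all genes tested 3.59% were called higher and 3.32% lower.

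Of 29 cholesterol and lipid uptake genes 3 (10.3%) were called higher and 1 (3.45%) lower (6 with no filter on low counts and 5 by DESeq2 were higher). The shares of all genes tested were 3.59% higher and 3.32% lower. Fabp3, a fatty acid binding protein, was at 498, 961 and 1199.6 CPM against 68.8, 38.2 and 61.4 CPM (log2 fold change 3.98 ± 0.42, adjusted p = 0.00013). Insig1, a sterol sensor that holds back cholesterol synthesis, was at 132, 387 and 408 CPM against 21.3, 20.1 and 20.9 CPM (log2 fold change 3.90 ± 0.37, adjusted p = 3.6e-05). Another fatty acid binding protein gene, Fabp5, was lower, at 5.21, 8.28 and 6.49 CPM against 16.6, 25.9 and 32.2 CPM (log2 fold change -1.90 ± 0.36, adjusted p = 0.0038). Of 15 iron, heme and vitamin transport genes, Cubn, Slc39a14 and Tcn2 were higher and 1, Slc40a1, was lower, a call lost when any one of the 3 Sox1-FOXA2+ libraries was left out. Tcn2, the vitamin B12 carrier, was at 124, 118 and 151 CPM against 39.6, 43.3 and 36.4 CPM (log2 fold change 1.72 ± 0.22, adjusted p = 0.0002). Cathepsins, the lysosomal proteases, had 3 of 14 higher and 0 lower. Solute carriers had 24 of 309 (7.77%) higher and 7 (2.27%) lower (15 leaving out Sox1-FOXA2+ replicate 3 and 2 with all 57 libraries in 1 fit were higher, and 14 with no filter on low counts, 11 by DESeq2 or by the newer edgeR method, 4 leaving out Sox1-FOXA2+ replicate 3, 3 leaving out Sox1+FOXA2- replicate 2, 2 leaving out Sox1+FOXA2- replicate 1 and 0 with all 57 libraries in 1 fit were lower). Slc26a2, a sulfate transporter, was at 111, 172 and 172 CPM against 19.7, 21.8 and 15.5 CPM (log2 fold change 2.99 ± 0.28, adjusted p = 1.6e-05).

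A germline list of 24 genes, chosen after values had been seen, had 9 called lower and 0 higher (5 leaving out Sox1+FOXA2- replicate 1, 4 leaving out Sox1+FOXA2- replicate 2 or Sox1+FOXA2- replicate 3 and 2 with all 57 libraries in 1 fit). Meioc, a meiosis factor, was at 11.7, 7.06 and 17.2 CPM against 93.8, 104 and 79.4 CPM (log2 fold change -2.95 ± 0.30, adjusted p = 3.7e-05), and Dppa2 was at 9.48, 10.8 and 8.56 CPM against 38.6, 36.1 and 32.3 CPM (log2 fold change -1.89 ± 0.26, adjusted p = 0.00039). Neural crest genes had 5 of 20 lower and 0 higher (3 leaving out Sox1+FOXA2- replicate 1 or Sox1-FOXA2+ replicate 2 or with only the 6 libraries in the fit, 2 leaving out Sox1+FOXA2- replicate 2 and 0 with all 57 libraries in 1 fit), glia genes had Glul higher among 10, and ventral neural tube genes had Foxa2 higher and Gli2 lower among 9, the call of Gli2 being lost leaving out Sox1+FOXA2- replicate 2, Sox1+FOXA2- replicate 3 or Sox1-FOXA2+ replicate 3. None of 73 cytoplasmic ribosomal protein genes was called by edgeR, with 4 lower at an unadjusted p below 0.05 and a median log2 fold change of -0.34. Of all genes tested 3.59% were called higher and 3.32% lower.

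Windows of 250 bases before to 50 after the start were found for 576 of 757 genes called higher, 521 of 699 called lower and 14293 of 21069 tested. The comparison of motif shares is void, since fewer than 80% of the genes had a window. The GATA motif AGATAA was in 4.69%, 5.18% and 8.27% of the windows found, and the forkhead motif TGTTTAC in 2.43%, 2.3% and 2.83%, on either strand.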
